A study of Mus musculus with 4 samples.

Results

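The 10 genes described here make, break down, bind or respond to retinoic acid, and were followed through the cell classes of the adult mouse testis and compared between WT and Dhx37-/- animals. They were Rdh10, Aldh1a1 and Aldh1a2 (synthesis), Cyp26a1 and Cyp26b1 (breakdown), Crabp1 (binding), Rara, Rarg and Rxrb (nuclear receptors) and Stra8 (a response gene). The genes were taken by symbol, and all 10 symbols matched 1 row each among the 55357 gene rows of the count tables.

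Retinoic acid is made from retinol in successive oxidations, the first to retinal by retinol dehydrogenases such as RDH10 and the next to retinoic acid by the ALDH1A retinal dehydrogenases, and it is oxidised to inactive products by the CYP26 enzymes. It acts through heterodimers of RAR and RXR receptors that bind DNA. In the testis retinoic acid drives the differentiation of spermatogonia and the entry into meiosis, and Stra8 is the germ cell gene best known for its induction at these steps.

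Single-nucleus RNA-seq (10x Genomics 3′ libraries) was done on nuclei of whole testes from male mice of 8 weeks, in 2 WT and 2 Dhx37-/- libraries that the labels call biological replicates. The Dhx37-/- animals carried Dhx37 flox/flox and AMH-Cre on a C57BL/6 background, so that Cre driven by the Amh promoter acts in Sertoli cells, the somatic cells that support the germ cells, and the other cell types keep the gene. The study describes the WT animals as littermates, and how many animals gave each library was not given in the sources used here, so the p-values measure the spread between these libraries. DHX37 is an RNA helicase of ribosome assembly. Its 3′ counts do not check the deletion of an internal exon, and in Sertoli nuclei Dhx37 was read at 7.89 and 24.98 CPM (defined below) in WT replicates 1 and 2, from 4 and 3 UMIs, and at 10.4 and 7.12 CPM in Dhx37-/- replicates 1 and 2, from 12 and 15 UMIs.

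The libraries held 51797891 to 75611263 UMIs (unique molecular identifiers, each 1 captured RNA molecule), of which 52.2 to 60.7% lay in 8295 to 10022 nuclei per library, with a median of 3302 to 4158 UMIs per nucleus. Of the 37034 nuclei, 23943 were placed in classes by marker genes other than the 10 genes, and 35.4% were not placed. Of the placed nuclei, 3 fell into an epithelial or mesothelial class that is left out below, and the rest into 12 classes. The classes are marker-gated ranges and not the study's annotation. Sertoli nuclei carried 3503 to 4305 CPM over their own 15 markers against 231 to 342 CPM over the Leydig markers. The same Sertoli nuclei held 1682, 2273, 4855 and 3237 CPM of elongating spermatid markers in WT replicates 1 and 2 and Dhx37-/- replicates 1 and 2, higher in both Dhx37-/- libraries and above the Sertoli markers in Dhx37-/- replicate 1. Leydig nuclei carried 8298 to 11910 CPM over their own 10 markers against 356 to 679 CPM over the Sertoli markers. In Leydig nuclei the elongating spermatid markers stood at 2823 and 2782 CPM in WT and 6089 and 4245 CPM in Dhx37-/- libraries, and the Sertoli markers at 356 and 455 against 679 and 594 CPM, both lists higher in both Dhx37-/- libraries. The germ cell gates were less separate: spermatogonia carried 1904 to 2082 CPM over their own 17 markers and 2354 to 3271 CPM over the early meiotic markers, whereas early meiotic nuclei carried 6523 to 7032 CPM over their own 18 markers. In early meiotic nuclei the spermatogonial markers stood at 605 and 622 CPM in WT and 392 and 399 CPM in Dhx37-/- libraries, and the 9 pachytene to diplotene markers at 813 and 746 CPM in WT and 1752 and 1615 CPM in Dhx37-/- libraries, so that both lists differed by genotype without overlap. Free RNA made up an estimated 6.42 to 10.3% of UMIs in Sertoli nuclei and up to 38.4% in pachytene to diplotene spermatocytes. Its share was highest in WT replicate 1 in every class with an estimate except T cells. In early meiotic nuclei it was 28.95% there against 13.7 to 15.4% in the other libraries, and in spermatogonia 36.5% against 15.6 to 21.9%. The share was scaled from the transcripts of Prm1, Prm2, Tnp1 and Tnp2 alone, so any such RNA of the nuclei themselves counts as free RNA. No share was estimated for round and elongating spermatids. A level expected from free RNA alone is given below where it matters. Any pair of libraries shared 19 to 29 cell barcodes, 0.229 to 0.293% of the nuclei of the smaller library. Sertoli nuclei numbered 59 and 18 in WT and 147 and 246 in Dhx37-/- libraries, and early meiotic nuclei 76 and 36 against 166 and 427. Levels are given in CPM, the UMIs of a gene summed over the nuclei of a class in a library and scaled so that every such sum has the same total. The 3′ counts are not scaled by length, so each gene is compared with itself across classes and libraries and not with other genes.

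**Figure D1:**
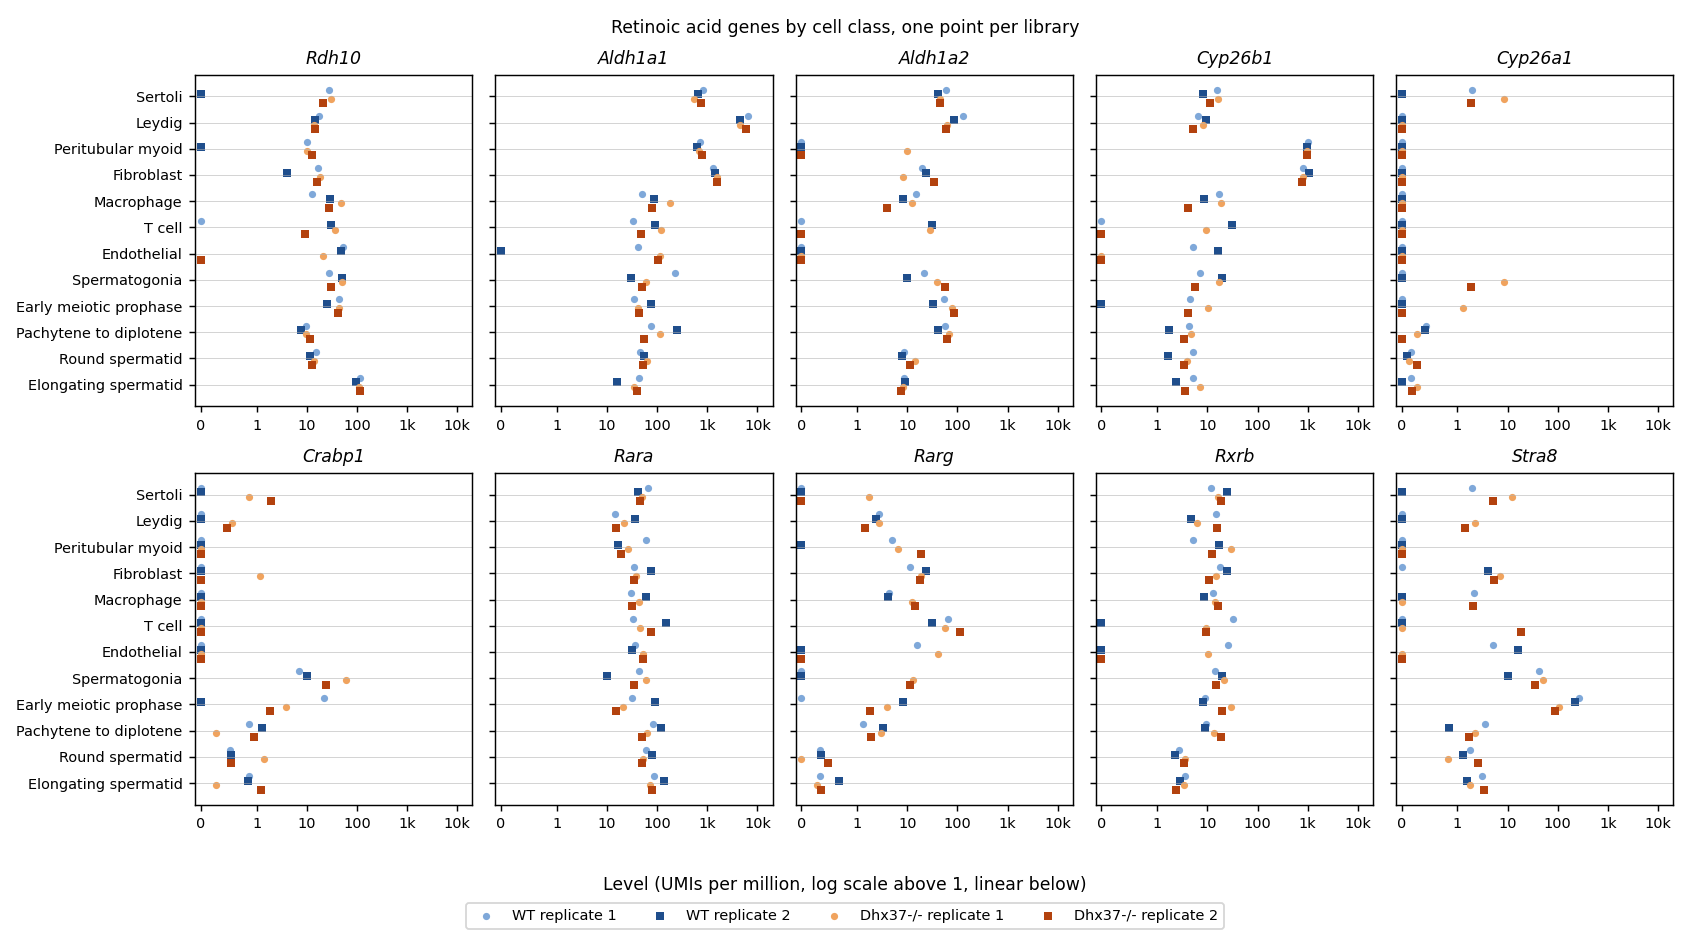
Level of each of the 10 genes (horizontal axes, CPM, on a log scale above 1 and linear below) in the marker-gated cell classes (rows), 1 point per library, WT and Dhx37-/- in different colours. Stra8 is highest in early meiotic nuclei, Aldh1a1 in Leydig nuclei, Cyp26b1 in peritubular myoid and fibroblast nuclei, and Rdh10 in elongating spermatids.

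Rdh10, whose product oxidises retinol to retinal, was highest in elongating spermatids. There WT replicates 1 and 2 held 114 and 93.6 CPM and Dhx37-/- replicates 1 and 2 held 112 and 115 CPM, and 26.0 to 35.2% of these nuclei held an Rdh10 UMI. Spermatogonia came next, at 28.3, 49.9, 51.4 and 30.2 CPM in WT replicates 1 and 2 and Dhx37-/- replicates 1 and 2 (the order of every list of 4 values from here on). The mean in elongating spermatids was 2.72-fold the mean in spermatogonia and the ranges did not overlap. Early meiotic nuclei stood at 44.2, 24.9, 43.0 and 41.0 CPM and overlapped spermatogonia. In pachytene to diplotene spermatocytes the level was 7.58 to 11.7 CPM, and in round spermatids 11.4 to 15.4 CPM, below the classes before and after them. The round spermatid clusters were not alike: the one led by Gm42397 held 55.8, 36.4, 53.8 and 34.6 CPM, and the others 4.80 to 11.3 CPM. Sertoli nuclei, at 27.6, 0, 31.1 and 21.4 CPM, overlapped spermatogonia, and Leydig nuclei held 13.8 to 17.4 CPM. Of the Rdh10 UMIs in kept nuclei, elongating spermatids held 39.2 to 50.4% and nuclei not placed in a class 31.6 to 35.9%. Rdh10 stood at 29.9 to 35.3 CPM in free RNA, whose share in elongating spermatids was not estimated.

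Aldh1a1, a retinal dehydrogenase, was highest in Leydig nuclei, the androgen-producing cells of the interstitium. It reached 6544 and 4450 CPM in WT and 4514 and 6026 CPM in Dhx37-/- libraries, and 97.6 to 100% of Leydig nuclei held at least 1 UMI, against 14.1 to 21.4% of round spermatids (median 4710 to 6403 and 3620 to 4354 UMIs per nucleus). The genotypes overlapped. Fibroblasts stood second, at 1318, 1390, 1552 and 1569 CPM, 3.69-fold below Leydig nuclei by the means, and the ranges of the classes did not overlap. Peritubular myoid nuclei, of the contractile cells around the tubule, held 706, 637, 684 and 774 CPM and were followed by Sertoli nuclei at 839, 641, 536 and 739 CPM, and the levels of those classes overlapped. Free RNA alone would have given 8.39 to 25.2 CPM in Sertoli nuclei, far under what was read.

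In the germ line Aldh1a1 was much lower and closer to free RNA. Early meiotic nuclei held 35.3, 74.6, 41.7 and 43.7 CPM where free RNA would give 18.3 to 70.7 CPM. The 70.7 CPM belongs to WT replicate 1, where only 35.3 CPM was read, so the estimate was too high for this gene there. Pachytene to diplotene spermatocytes held 76.9, 248, 111 and 53.9 CPM. Free RNA, in which Aldh1a1 stood at 131 to 284 CPM, made up an estimated 38.4% of the UMIs of those spermatocytes in WT replicate 1. In the other libraries it made up 15.3 to 15.7%. The highest Aldh1a1 level among those spermatocytes was that of WT replicate 2. In spermatogonia the levels were 227, 29.9, 59.9 and 50.9 CPM, with WT replicate 1 standing apart: 27 of its 32 Aldh1a1 UMIs lay in 10 nuclei that could not be assigned to undifferentiated or differentiating spermatogonia. Outside the placed classes, 2 unnamed clusters led by 1500015L24Rik and Upf3b carried 239 to 667 and 244 to 652 CPM, with WT replicate 2 again highest in both. Nuclei not placed in a class held 49.7% of the Aldh1a1 UMIs of kept nuclei in WT replicate 2 and 9.20 to 18.3% in the other 3 libraries, while Leydig nuclei held 25.6% in WT replicate 2 and 57.6 to 69.2% in the others.

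Aldh1a2, the other retinal dehydrogenase of the set, was spread over Leydig, germ cell and Sertoli nuclei. Leydig nuclei held 132, 83.8, 60.8 and 59.1 CPM, early meiotic nuclei 53.0, 33.2, 76.9 and 87.0 CPM, and pachytene to diplotene spermatocytes 56.0, 40.8, 68.7 and 61.1 CPM. These classes overlapped in level. Sertoli nuclei followed at 59.2, 41.6, 45.7 and 44.6 CPM. Peritubular myoid nuclei held Aldh1a2 UMIs in 1 library only (0, 0, 10.1 and 0 CPM), and endothelial nuclei held none. By cluster, the pachytene clusters led by Gm3455 and by Epha7 stood highest in the germ line, at 109, 101, 108 and 97.4 CPM and at 150, 66.8, 104 and 79.5 CPM, whereas round spermatids held 7.75 to 14.2 and elongating spermatids 7.65 to 9.03 CPM.

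**Figure D2:**
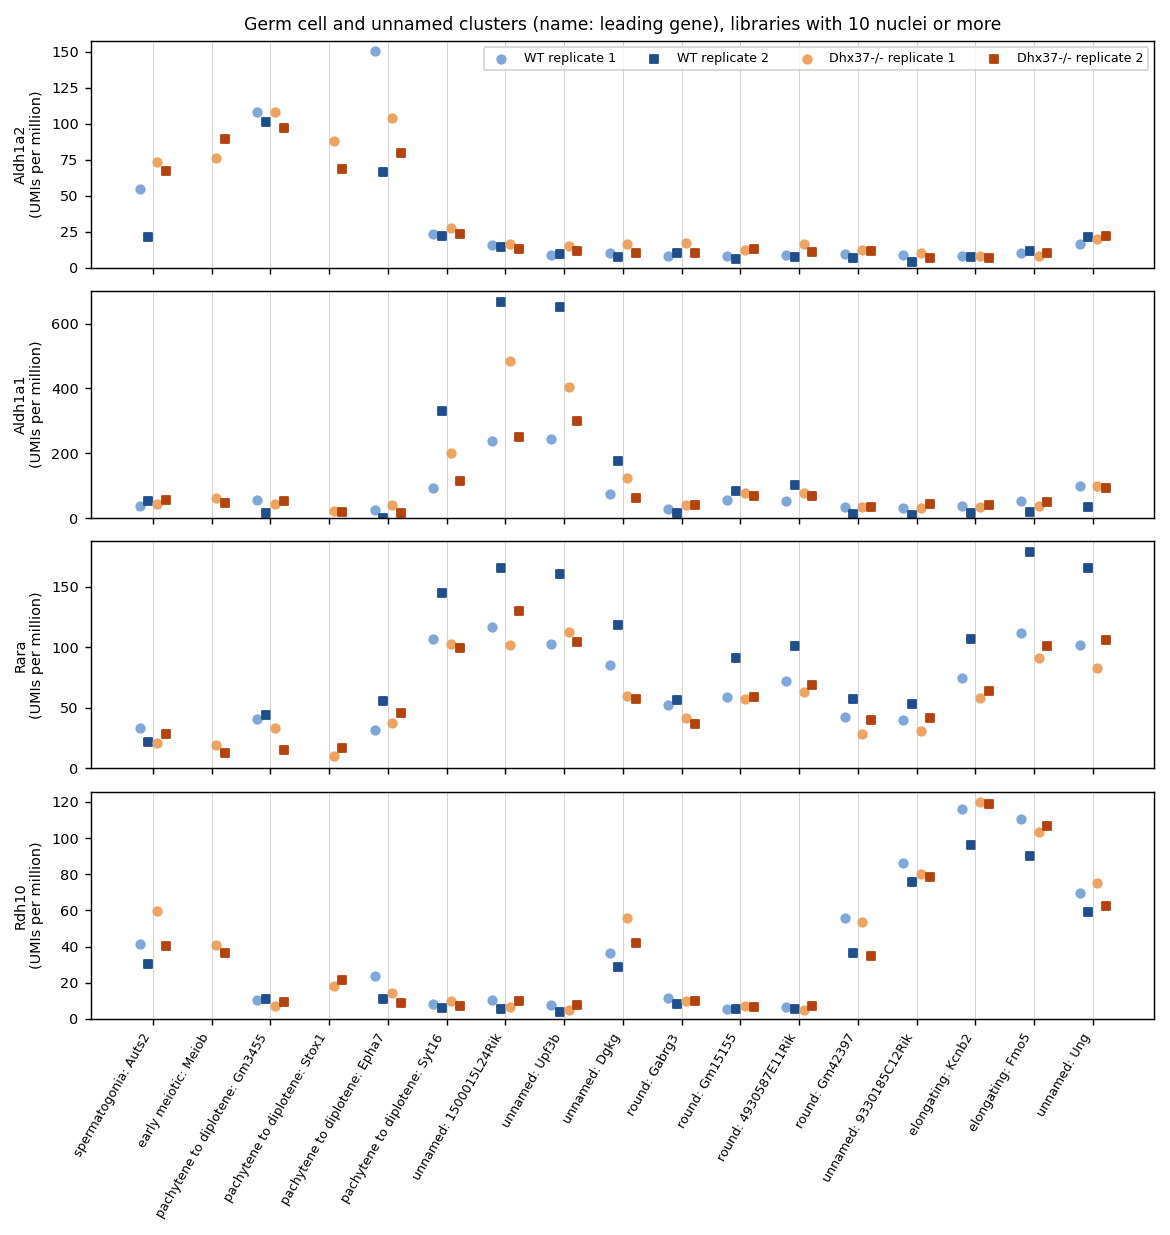
Levels of Aldh1a2, Aldh1a1, Rara and Rdh10 (vertical axes, CPM) across germ cell and unnamed clusters (horizontal axes), 1 point per library with at least 10 nuclei in the cluster. Aldh1a2 is near 100 CPM in the Gm3455-led pachytene cluster, Aldh1a1 reaches 667 CPM in an unnamed cluster in WT replicate 2, and Rdh10 is highest in elongating spermatids.

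Cyp26b1, which encodes the retinoic acid-degrading enzyme best known from the fetal testis, was highest in peritubular myoid and fibroblast nuclei. Peritubular myoid nuclei held 1026, 955, 985 and 982 CPM and fibroblasts 815, 1054, 815 and 758 CPM. A UMI was present in 81.2 to 94.3% of peritubular myoid and 62.6 to 66.3% of fibroblast nuclei. The ranges of these classes overlapped, and the fibroblast mean was 66.3-fold above the next class, Sertoli nuclei. Sertoli nuclei held 8, 1, 19 and 24 Cyp26b1 UMIs, or 15.8, 8.33, 16.4 and 11.4 CPM, where free RNA would give 1.98 to 3.67 CPM. Leydig nuclei held 6.41, 9.58, 8.29 and 5.24 CPM against 2.50 to 6.27 CPM from free RNA. Fibroblasts carried 55.4 to 65.8% and peritubular myoid nuclei 14.2 to 23.6% of the Cyp26b1 UMIs in kept nuclei.

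Cyp26a1, the family member that retinoic acid itself induces in many cells, was near the limit of detection. Kept nuclei held 7, 2, 18 and 11 UMIs, out of 43, 18, 64 and 39 in the whole libraries. Of these, 1, 0, 10 and 4 lay in Sertoli nuclei, or 1.97, 0, 8.63 and 1.90 CPM, where free RNA would give 0.0408 to 0.147 CPM. These counts are too few to order the libraries. The promoter of Cyp26a1 is shown because it is the 1 among the 9 member promoters in the RefSeq table (GRCm38.p6, 250 bases before to 50 after the start; Rdh10 was not matched) that held the classical element of a retinoic acid receptor dimer, a direct repeat of AGGTCA-like half-sites spaced by 5 bases. The half-sites searched, on both strands, were AGGTCA (found alone in 16.3% of all promoters), AGTTCA (14%), GGGTCA (13.7%) and GGTTCA (10.4%). The repeat lies on the opposite strand of the gene and begins 32 bases before the start, at chr19:37697771-37697797, in the flank upstream of the first exon, with the half-sites in capitals.
Cyp26a1: aaattAGTTCAcccaaAGTTCAtcttt
Such a repeat was present in 32 of 32851 promoters of this length (0.0974%), and a repeat with a spacing of 2 in 88 (0.268%), none of them a member. A match of letters is a description and not a bound site.

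Crabp1, a cytosolic retinoic acid binding protein, was read in spermatogonia. They held 1, 1, 14 and 13 UMIs, or 7.08, 9.98, 59.9 and 24.5 CPM, where free RNA would give 0.895 to 1.37 CPM. Differentiating spermatogonia held 0, 1, 12 and 8 of these UMIs. Both Dhx37-/- libraries were above both WT libraries, on counts of 1 UMI in each WT library that allow no comparison. Early meiotic nuclei held 22.1, 0, 3.91 and 1.84 CPM. Of all Crabp1 UMIs, 22.9 to 30.6% lay in kept nuclei, a smaller share than the 52.2 to 60.7% of all UMIs.

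Rara, the receptor gene with the most UMIs of the 3, was read in every class, and each class overlapped the next in the order of levels. Among the placed classes, elongating spermatids and pachytene to diplotene spermatocytes had the highest means. Elongating spermatids held 86.3, 137, 72.5 and 77.4 CPM, pachytene to diplotene spermatocytes 83.0, 120, 62.4 and 49.6 CPM, and round spermatids 58.7, 77.3, 51.3 and 50.6 CPM. WT replicate 2 was highest in each of these classes. Sertoli nuclei, in which this receptor is best known to act, held 65.1, 41.6, 50.9 and 44.6 CPM, and Leydig nuclei 14.6, 35.9, 22.1 and 15.3 CPM. In the free RNA of the 4 libraries Rara stood at 62.7, 71.0, 35.2 and 39.9 CPM, again higher in both WT libraries. Outside the placed classes, unnamed clusters led by 1500015L24Rik, Upf3b and Ung held 102 to 165, 103 to 161 and 82.7 to 166 CPM. Nuclei not placed in a class held 35.3 to 38.7% of the Rara UMIs in kept nuclei.

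Rarg, a receptor gene best known in the testis from spermatogonia, was sparse, with 33 to 80 UMIs per library in kept nuclei. T cells held 66.1, 30.6, 55.8 and 112 CPM, from 2, 1, 6 and 12 UMIs, and fibroblasts 11.6, 24.0, 18.6 and 17.8 CPM. Spermatogonia held 0, 0, 12.8 and 11.3 CPM and Sertoli nuclei 0, 0, 1.73 and 0 CPM, so the gene was not detectable there in WT at this depth. Rxrb, a common dimer partner of the RARs, had class means of 2.98 CPM in round spermatids to 18.1 CPM in Sertoli nuclei, and every class overlapped its neighbour in that order. Pachytene to diplotene spermatocytes held 9.56, 8.84, 13.7 and 18.5 CPM and early meiotic nuclei 8.83, 8.29, 29.96 and 19.3 CPM. The early meiotic values of WT replicates 1 and 2 rest on 1.17% of 171 and 0.763% of 131 Rxrb UMIs in kept nuclei. They are too few to compare, and Rxrb was not tested between genotypes in that class.

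Stra8, which licenses the entry into meiosis, was concentrated in early meiotic nuclei. These held 59, 26, 82 and 191 UMIs, or 261, 216, 107 and 87.9 CPM, with 95% Poisson intervals of 198 to 336, 141 to 316, 84.96 to 133 and 75.9 to 101 CPM that cover counting error only. Both WT libraries lay above both Dhx37-/- libraries, as they did for the spermatogonial markers of these nuclei, while the pachytene to diplotene markers were higher in both Dhx37-/- libraries. Early meiotic nuclei held 31.9 to 51.1% of the Stra8 UMIs in kept nuclei, while 26.1 to 46.8% of all Stra8 UMIs lay in kept nuclei. Free RNA alone would have given 1.25 to 3.68 CPM. Spermatogonia came second with 6, 1, 12 and 19 UMIs, or 42.5, 9.98, 51.4 and 35.8 CPM, 4.80-fold below by the means and with no overlap. Of those, differentiating spermatogonia held 5, 0, 12 and 14 UMIs. Sertoli nuclei held 1, 0, 14 and 11 Stra8 UMIs, or 1.97, 0, 12.1 and 5.22 CPM, where free RNA would give 0.575 to 1.51 CPM.

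Of the early meiotic nuclei, 33 of 76 and 12 of 36 held a Stra8 UMI in WT (43.4% and 33.3%), and 35 of 166 and 88 of 427 did so in Dhx37-/- (21.1% and 20.6%). With every nucleus thinned to 1000 UMIs the shares were 19.7, 13.9, 13.2 and 9.13%. Leydig nuclei, which should lack the gene, showed 0 to 1.27% at a median depth of 4710 to 6403 UMIs, against 2678 to 4636 UMIs in early meiotic nuclei. An exact permutation test of 2 against 2 libraries cannot give a two-sided p under 0.33.

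The Stra8 promoter held AGGTCA at 2 places on the strand of the gene, shown for its response to retinoic acid, with the half-sites in capitals. The first begins 194 bases before the start (chr6:34920744-34920769) and the second 38 bases before it (chr6:34920900-34920925, GRCm38.p6), both in the upstream flank.
Stra8 distal: tggggtgaaaAGGTCAtcttgctcct
Stra8 proximal: ctggggtaccAGGTCAgttttttacc
AGGTCA alone occurs in 5340 promoters (16.3%), among them those of Rara and Rarg, so the single half-site is common.

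**Figure D3:**
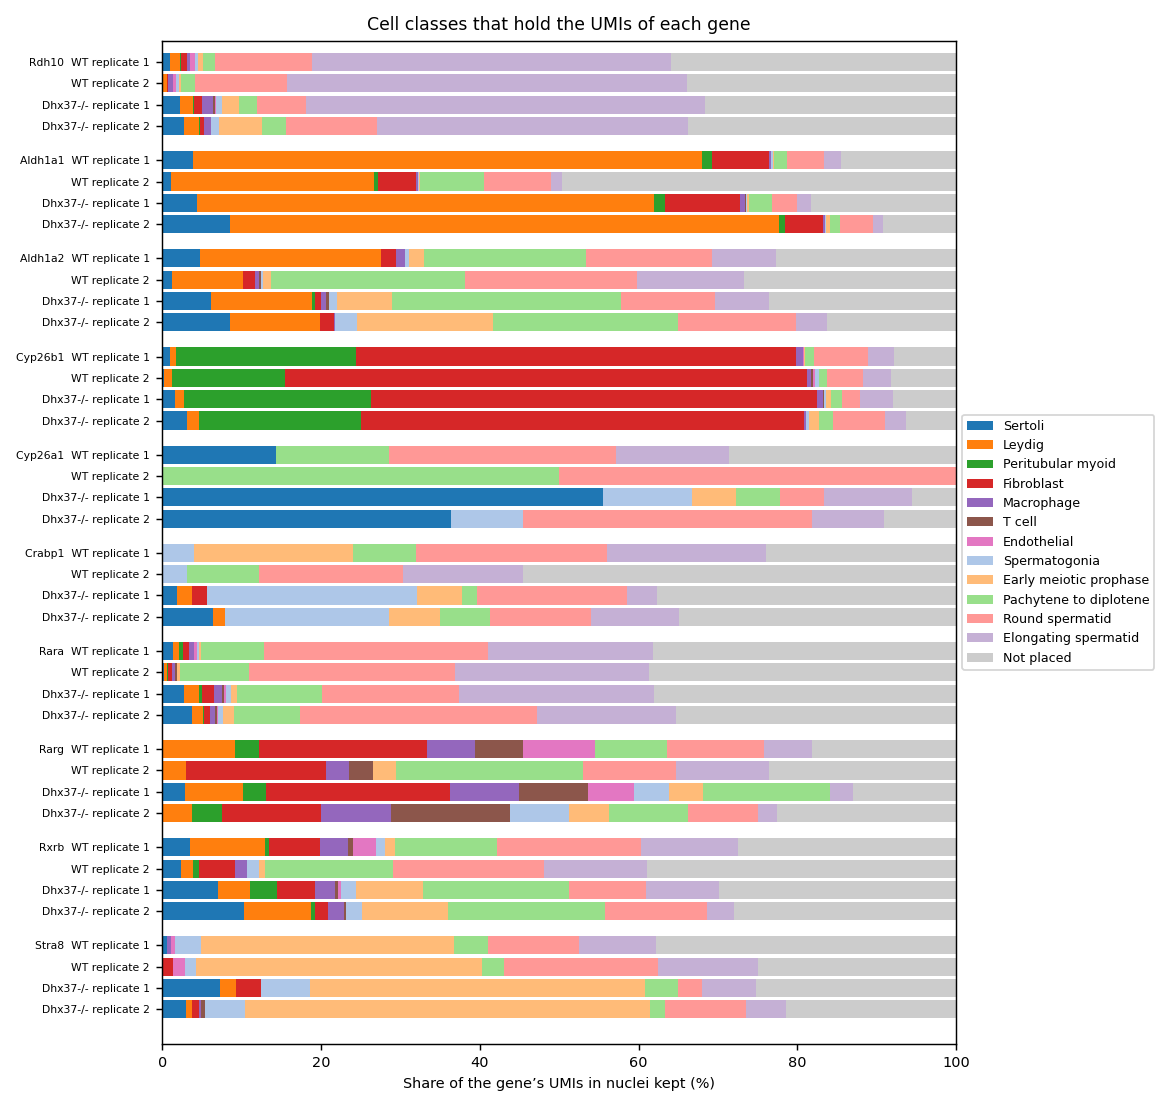
Share of each gene's UMIs in kept nuclei (horizontal axis, percent) that lay in each cell class, by colour, with 1 stacked bar per library, for each of the 10 genes. Leydig nuclei hold 57.6 to 69.2% of Aldh1a1 in 3 libraries and 25.6% in WT replicate 2, and fibroblasts hold 55.4 to 65.8% of Cyp26b1.

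Neighbouring classes were then compared within libraries, by edgeR's quasi-likelihood test with the library as a block and Benjamini-Hochberg adjustment over all genes tested. Along the germ line, spermatogonia were compared with early meiotic nuclei, where 17.1% of all genes passed. Of the 3 members tested, Stra8 was lower in spermatogonia by a log2 difference of -1.78 (SE 0.36, adjusted p = 0.00687). The difference was -0.85 for Aldh1a2 (adjusted p = 0.0818) and 0.75 for Aldh1a1 (adjusted p = 0.271). With classes taken from whole clusters in place of the gate the Stra8 difference was 3.97, the opposite direction. That value rests on the 2 Dhx37-/- libraries alone, since the Meiob-led cluster named for early meiosis held 3 and 2 WT nuclei against 117 and 266 in Dhx37-/- libraries, and the cluster named for spermatogonia held 59 of the 76 and 21 of the 36 WT nuclei that the gate called early meiotic.

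Between early meiotic nuclei and pachytene to diplotene spermatocytes 57.4% of all genes passed, and 4 of the 6 members tested did. In early meiotic nuclei Stra8 was higher by 6.06 on the log2 scale (SE 0.30, adjusted p = 5.11e-13) and Rdh10 by 1.92 (SE 0.29, adjusted p = 9.02e-06). Aldh1a1 (log2 difference -1.08, SE 0.25, adjusted p = 0.000746) and Rara (-1.43, SE 0.25, adjusted p = 3.88e-05) were lower in early meiotic nuclei. The counts were not corrected for free RNA, whose shares in these classes are given above. Aldh1a2 differed by 0.16, with a 95% interval of -0.30 to 0.62.

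Between Sertoli and Leydig nuclei 54.6% of all genes passed. Of the 6 members tested, Aldh1a1 (log2 difference -3.04, SE 0.14, adjusted p = 1.56e-16) and Aldh1a2 (-0.69, SE 0.19, adjusted p = 0.00253) were lower in Sertoli nuclei, so both dehydrogenases were higher in the Leydig class. Rara was higher in Sertoli nuclei by 1.36 (SE 0.25, adjusted p = 3.45e-05) and Cyp26b1 by 0.95 (SE 0.37, adjusted p = 0.0319). The Cyp26b1 call was lost with DESeq2, without WT replicate 1 and without doublets, and the level in Leydig nuclei was near that of free RNA. Rdh10 differed by 0.65 (adjusted p = 0.07) and Rxrb by 0.53 (adjusted p = 0.192).

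Peritubular myoid nuclei and fibroblasts, the classes with the most Cyp26b1, differed in Aldh1a1 (log2 -1.01 in peritubular myoid nuclei, SE 0.12, adjusted p = 3.31e-08) in a comparison where 21.6% of genes passed. Cyp26b1 differed by 0.27, with a 95% interval of 0.02 to 0.53 and an adjusted p of 0.125. Against spermatogonia, the germ cells they adjoin, Sertoli nuclei held more Aldh1a1 (log2 3.53, SE 0.29, adjusted p = 9.11e-12), where 63.3% of genes passed. Aldh1a2, Rara and Rdh10 differed there by 0.70, 0.75 and -0.28, with adjusted p of 0.0926, 0.0588 and 0.566.

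The genotypes were compared class by class, over 47 pairs of a member and a class with enough counts, in 9 classes. Cyp26a1 and Crabp1 had too few counts in any class. The single pair that passed was Stra8 in early meiotic nuclei. In 31 pairs the WT and Dhx37-/- libraries overlapped, in 7 both Dhx37-/- libraries were above and in 9 both were below. Over all genes tested, both Dhx37-/- libraries were above in 26.3% of genes in Sertoli nuclei, 21.5% in Leydig nuclei, 22.2% in fibroblasts, 22.3% in macrophages, 29.7% in spermatogonia, 29.7% in early meiotic nuclei, 23.3% in pachytene to diplotene spermatocytes, 23.7% in round spermatids and 23.5% in elongating spermatids. Both were below in 13.6, 13.4, 15, 20.3, 19.7, 27.2, 23.4, 15.4 and 17.3% of genes, in the same order of classes. Of the members, both Dhx37-/- libraries were above for 3 of 6 and below for 1 of 6 tested in pachytene to diplotene spermatocytes, below for 2 of 6 in Leydig nuclei, above for 1 of 5 and below for 2 of 5 in early meiotic nuclei, above for 2 of 7 and below for 1 of 7 in round spermatids, below for 2 of 7 in elongating spermatids and on each side for 1 of 6 in fibroblasts, and all others overlapped. Where a library is left out below, its genotype rests on 1 library, which the fit takes to vary as the pair of the other genotype does. At an unadjusted p under 0.05 there were 8 pairs, and DESeq2 called none of them. At that limit stood 2599 of the 9635 genes tested in early meiotic nuclei, where 3 of the 8 pairs lay, 1119 of 9248 in macrophages, where 1 lay, and 1668 of 21900 in round spermatids, and the counts for the other classes are given with each class below.

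Stra8 in early meiotic nuclei averaged 238 ± 31.8 CPM in WT and 97.4 ± 13.4 CPM in Dhx37-/- libraries (SD, n = 2 each). The log2 difference was -1.33 (SE 0.28, 95% interval -1.92 to -0.73, edgeR adjusted p = 0.0144), in a comparison where 9.40% of all genes passed. The nuclei behind the sums were not the same mixture. In WT, 59 of 76 and 21 of 36 early meiotic nuclei fell into the cluster that the markers named for spermatogonia, led by Auts2, and 2 and 0 into the cluster named for early meiosis, led by Meiob. In Dhx37-/- libraries 48 of 166 and 141 of 427 fell into the former and 80 and 194 into the latter. A further 15 and 70, against 0 and 0 in WT, fell into a pachytene to diplotene cluster led by Stox1. The rest, a larger part of the nuclei in WT libraries, lay in round spermatid, other pachytene to diplotene and unnamed clusters. Among these were 5, 2, 3 and 8 nuclei in the round spermatid cluster led by Gm15155 and 4, 6, 3 and 2 in the Gm3455-led cluster. Within the Auts2-led cluster, early meiotic nuclei held 355, 382, 415 and 295 CPM of Stra8, from 59, 25, 79 and 174 UMIs, and the genotypes overlapped (log2 difference -0.11, SE 0.26, adjusted p = 0.937). In the Meiob-led cluster the Dhx37-/- libraries held 8.31 and 15.4 CPM. That cluster was examined after the values had been seen, and the part of the mixture in the difference over all early meiotic nuclei was not tested otherwise. The spermatogonial and pachytene to diplotene markers moved with genotype in the same nuclei, at the values given above, and their part in the difference was not tested. The call was also lost with DESeq2 (adjusted p = 0.0582), with no filter on low counts (0.0536) and without any 1 of the libraries (0.063 to 0.309), although the difference stayed at -1.41 to -1.01 with 1 library left out.

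**Figure D4:**
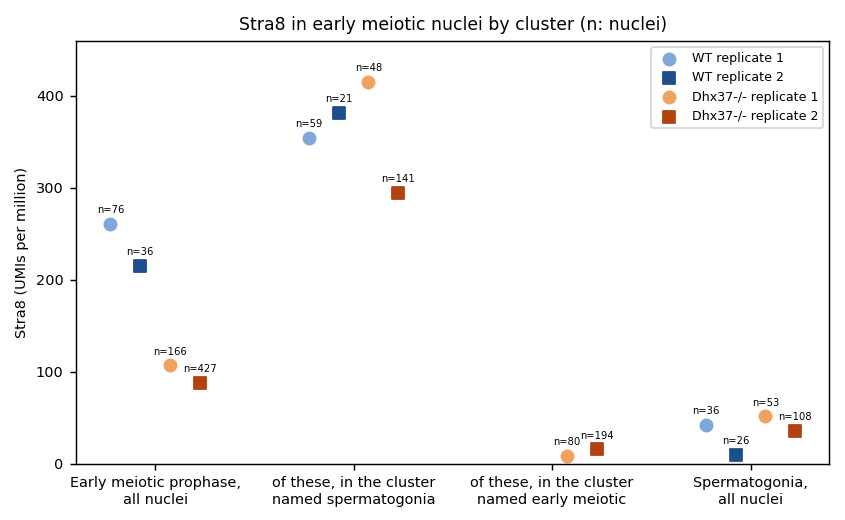
Stra8 level (vertical axis, CPM), 1 point per library with its number of nuclei (n), in all early meiotic nuclei, in those of the spermatogonia-named cluster, in those of the early meiotic-named cluster and in spermatogonia. Over all early meiotic nuclei both WT libraries are above both Dhx37-/- libraries, and within the spermatogonia-named cluster the 4 libraries overlap between 295 and 415 CPM.

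In Sertoli nuclei, the class in which Dhx37 was deleted, the 6 members tested overlapped between genotypes and none passed, with 0% of the 10386 genes passing (897 at an unadjusted p under 0.05, and 0 by DESeq2). The log2 difference was -0.33 for Aldh1a1 (SE 0.30), -0.39 for Aldh1a2, -0.19 for Cyp26b1, -0.43 for Rara, 0.17 for Rxrb and 0.13 for Rdh10, with adjusted p of 0.754 to 0.969. WT replicate 2 rested on 18 Sertoli nuclei, and the 95% interval for Aldh1a1 ran from -0.97 to 0.31. The signs in this class turned on WT replicate 1: without it Aldh1a1 differed by 0.01, Aldh1a2 by 0.13, Cyp26b1 by 0.70, Rara by 0.20 and Rxrb by -0.46, and Rdh10 was set against a WT library that held none of its UMIs. Without WT replicate 2 the differences were -0.55, -0.55, -0.38, -0.62, 0.44 and -0.28 for the 6 genes in that order, and no member passed under either omission.

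In the other somatic classes no member passed. In Leydig nuclei, where 0% of 13261 genes passed (813 at an unadjusted p under 0.05, and 1 by DESeq2), Aldh1a2 averaged 108 ± 34.0 CPM in WT and 59.96 ± 1.22 CPM in Dhx37-/- libraries (SD, n = 2 each), with no overlap, and its log2 difference of -0.91 (SE 0.29) had an adjusted p of 0.79. The elongating spermatid and Sertoli markers in these nuclei differed by genotype at the values given above, and their part in the difference was not tested. The Aldh1a2 difference was -1.12 without WT replicate 2 (adjusted p = 0.00552) and -0.60 without WT replicate 1 (adjusted p = 0.542). Aldh1a1 there differed by -0.10 (adjusted p = 0.99). In fibroblasts, where 0% of 10161 genes passed (831 at an unadjusted p under 0.05, and 3 by DESeq2), Cyp26b1 differed by -0.29 (adjusted p = 0.725; -0.47 without WT replicate 1 and -0.09 without WT replicate 2) and Aldh1a1 by 0.15 (adjusted p = 0.856). In macrophages, with 0.270% passing, Aldh1a1 held 49.2 and 88.5 CPM in WT and 184 and 78.4 CPM in Dhx37-/- libraries, where free RNA would give 23.4 to 73.3 CPM, and differed by 0.98 (SE 0.40, adjusted p = 0.331). That difference was 1.35 without WT replicate 2 (adjusted p = 0.0163), 0.57 without WT replicate 1 (adjusted p = 0.539) and 0.23 without Dhx37-/- replicate 1 (adjusted p = 0.998).

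In the germ line the only other differences with an unadjusted p under 0.05 concerned Aldh1a1, Aldh1a2 and Rara. Aldh1a1, the 1 member tested in spermatogonia (0% of 5712 genes passed, 909 at an unadjusted p under 0.05, and 32 by DESeq2), had a log2 difference of -1.42 (SE 0.62, adjusted p = 0.288) that turned to 0.75 without WT replicate 1 (adjusted p = 0.662) and was -2.16 without WT replicate 2 (adjusted p = 0.000411). Aldh1a2 in early meiotic nuclei was above WT in both Dhx37-/- libraries (log2 0.85, SE 0.40, adjusted p = 0.185), and the difference was 1.47 without WT replicate 1 (adjusted p = 0.138). Within the Auts2-led cluster early meiotic nuclei held 72.2, 15.3, 89.4 and 107 CPM of Aldh1a2 (log2 difference 0.85, SE 0.51, adjusted p = 0.618). Rara had a lower estimate in Dhx37-/- libraries in all 8 classes in which it was tested, with 4 of them not overlapping and none called. With 1 WT library left out the sign turned in 4 of the 8 classes, to 0.20 in Sertoli nuclei without WT replicate 1 and to 0.35 in Leydig nuclei, 0.01 in fibroblasts and 0.28 in macrophages without WT replicate 2. Where Rara was not tested, the WT and Dhx37-/- means were 26.2 and 46.9 CPM in spermatogonia and 34.1 and 51.8 CPM in endothelial nuclei. They were 38.8 and 22.8 CPM in peritubular myoid nuclei and 93.1 and 60.7 CPM in T cells. The log2 difference of Rara was -1.63 in early meiotic nuclei (SE 0.55, adjusted p = 0.0722), at 30.9, 91.2, 20.8 and 15.2 CPM. The values of WT replicates 1 and 2 rest on few counts, 0.29% of 2414 and 0.334% of 3292 Rara UMIs in kept nuclei. Early meiotic nuclei of the Auts2-led cluster held 30.1, 15.3, 5.26 and 22.03 CPM. These values rest on 5, 1, 1 and 13 UMIs, too few to compare the genotypes there, and Rara was not tested in that cluster. In WT replicate 2 most of the early meiotic Rara UMIs thus lay in nuclei of other clusters, whose part in the difference was not tested. The Rara difference was -0.83 in pachytene to diplotene spermatocytes (SE 0.26, adjusted p = 0.289), where 0% of 17478 genes passed (2360 at an unadjusted p under 0.05, and 91 by DESeq2). In elongating spermatids it was -0.60 (SE 0.26, adjusted p = 0.549). WT replicate 2 was the highest library in all 3 of these classes, and the differences turned on the WT libraries. Without WT replicate 1 they were -2.24, -1.01 and -0.93, and all 3 passed, whereas without WT replicate 2 they were -0.80, -0.60 and -0.21, with adjusted p of 0.466, 0.113 and 0.392. In round spermatids (0.00913% of genes passed) and elongating spermatids (0% of 17999, 1626 at an unadjusted p under 0.05, and 13 by DESeq2) none of the 7 members tested in each passed. Aldh1a1 differed by -0.94 in pachytene to diplotene spermatocytes and by 0.32 in elongating spermatids (adjusted p = 0.425 and 0.82). Without WT replicate 1 these differences were -1.51 and 1.14 and passed, and without WT replicate 2 they were 0.06 and -0.20 (adjusted p = 0.924 and 0.535), with the signs turned.

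The pachytene to diplotene class was also a different mixture of clusters by genotype. Its Stox1-led cluster held 2 and 0 nuclei in WT and 68 and 222 in Dhx37-/- libraries, and its Epha7-led cluster 19 and 13 against 69 and 90. The 2 main clusters, led by Syt16 and Gm3455, held 410, 429, 356 and 298 and 255, 204, 283 and 178 nuclei. In the Stox1-led cluster the Dhx37-/- libraries held 10.6 and 17.1 CPM of Rara and 21.2 and 20.0 CPM of Aldh1a1, whereas the Syt16-led cluster held 107, 145, 103 and 98.98 CPM of Rara and 91.8, 330, 202 and 113 CPM of Aldh1a1. Without the Stox1-led cluster, a setting chosen after the data were seen, the differences in the class were -0.61 for Rara (adjusted p = 0.616), -0.71 for Aldh1a1, 0.27 for Aldh1a2, 0.79 for Rxrb and 0.01 for Rdh10.

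**Figure D5:**
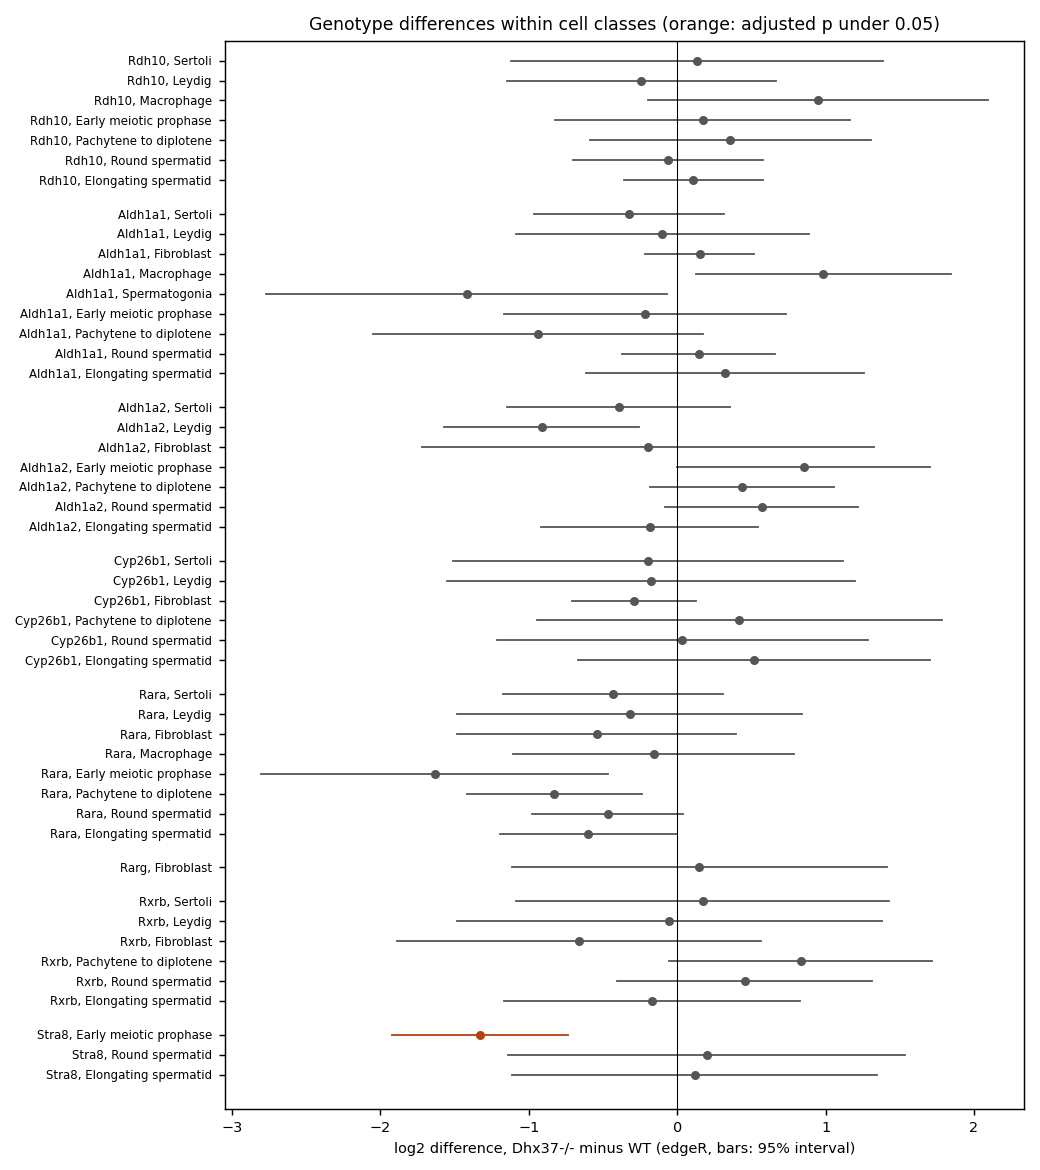
Log2 difference between Dhx37-/- and WT (horizontal axis) with its 95% interval for each of the 47 pairs of a gene and a class tested. The pair in orange, Stra8 in early meiotic nuclei at -1.33, is the one with an adjusted p under 0.05.

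Summed over all kept nuclei, 9 members were tested and none passed, with 0% of 30032 genes passing (4442 at an unadjusted p under 0.05, and 288 by DESeq2). In such sums more cells of a type and more RNA per cell cannot be told apart. Both Dhx37-/- libraries were above both WT libraries for 6 members, against 33.8% of all genes tested, and below for 1, Rara, against 17.5%. Rara held 69.3, 105, 60.4 and 55.1 CPM (log2 difference -0.68, SE 0.25, adjusted p = 0.314). Stra8 differed by 0.77 (adjusted p = 0.426), the opposite sign to its difference within early meiotic nuclei, which made up a larger part of the Dhx37-/- libraries. The median log2 difference over the 9 members was 0.58, and over all genes 0.00.

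The wider pathway was read from a list of 45 further genes of retinol transport and oxidation, retinal oxidation and breakdown, binding, receptors with cofactors, and response, of which 43 were in the count tables. Between genotypes 3 of the 16 tested in early meiotic nuclei passed, all lower in Dhx37-/- libraries, where 9.40% of all genes passed (427 higher and 479 lower). They were Rec8, a meiotic cohesin (53.0, 124, 19.5 and 17.5 CPM, log2 -2.14, SE 0.47, adjusted p = 0.0173), Meiosin, the partner of STRA8 (163, 74.6, 45.6 and 58.0 CPM, log2 -1.27, SE 0.37, adjusted p = 0.0474), and Ncoa2, a nuclear receptor coactivator (676, 398, 266 and 260 CPM, log2 -1.07, SE 0.28, adjusted p = 0.031). In each, both Dhx37-/- libraries were below both WT libraries. Within the Auts2-led cluster the differences were -1.47, -0.14 and -0.87, with adjusted p of 0.466, 0.934 and 0.314. Without WT replicate 1 the Meiosin difference was -0.33 and that of Ncoa2 -0.45, and the calls of both were lost without any 1 of the libraries, with no filter and with DESeq2. Rec8 differed by -2.61 to -1.50 with 1 library left out, and its call was lost without WT replicate 2 (adjusted p = 0.138) and without Dhx37-/- replicate 2 (adjusted p = 0.111). The early meiotic sums of WT replicates 1 and 2 held 226459 and 120642 UMIs in all, so their Rec8 levels rest on few counts. Rec8 was also read in round spermatids, at 68.9 to 101.5 CPM. What early meiotic nuclei of round spermatid clusters added to its difference was not tested. None of the 16 list genes tested in Sertoli nuclei, 25 in Leydig nuclei, 20 in fibroblasts or 27 in pachytene to diplotene spermatocytes passed.

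The list was also compared between classes. Between early meiotic nuclei and pachytene to diplotene spermatocytes 24 list genes were tested, and 13 were higher and 5 lower in early meiotic nuclei, against 4222 higher and 5010 lower of all 16074 genes tested. Of the 10 receptor and cofactor genes 8 were higher. Of 23 tested between Sertoli and Leydig nuclei, 4 were higher in Sertoli and 11 in Leydig nuclei, against 3332 and 3213 of all 11986 genes tested. Dhrs3, which reduces retinal back to retinol, held 159, 91.0, 103 and 113 CPM in Leydig nuclei and 8.07 to 11.8 CPM in Sertoli nuclei (log2 -3.62), and Ncoa2 was higher in Sertoli nuclei by 2.89. Of 13 tested between peritubular myoid nuclei and fibroblasts, 2 were higher and 2 lower in peritubular myoid nuclei, near the 21.6% of all genes called. Aldh1a3, a further retinal dehydrogenase, held 64.5, 60.1, 100.04 and 109 CPM in fibroblasts against 0, 0, 10.1 and 0 CPM in peritubular myoid nuclei (log2 -4.28), alongside the lower Aldh1a1 of that class.

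The genes most like each of 5 members were found by Pearson correlation of log2(CPM + 5) over 48 class by library sums among 18886 genes. The points share libraries, depth and class definitions, so the values are a description. For Stra8 they were Gm15262 (r = 0.890), Meiosin (0.882) and Zyg11a (0.881). For Aldh1a1 they were Acsbg1 (0.923), A830008E24Rik (0.908) and Prss35 (0.902), and for Cyp26b1 Tcf23 (0.957), Crispld2 (0.954) and Gli1 (0.953). Aldh1a2 had its closest genes at lower values, C920006O11Rik (0.764), Shmt1 (0.758) and Fam169a (0.731), and Crabp1 had Gm20756 (0.862), Mageb4 (0.848) and Cnksr2 (0.831).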

How the data were processed

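The authors deposited raw Cell Ranger matrices, with whole-number UMI counts for every barcode and no normalization. The submitters' processing notes name bcl2fastq, Cell Ranger, Seurat 3.1.1 and GRCm38 (mm10), whereas the study's methods name a later mouse build, so coordinates are given only for RefSeq promoters (GRCm38.p6). Barcodes were called as nuclei where their UMI total passed a depth cutoff (99th percentile of the top 8000, divided by 10) or their profile differed from free RNA (10000 simulations, adjusted p under 0.01), and were kept by the study's own limits of 500 UMIs, 500 to 5000 genes and 25% mitochondrial UMIs. The upper limit of 5000 genes removed 13 and 15 called nuclei in WT replicates 1 and 2. In Dhx37-/- replicates 1 and 2 it removed 204 and 302, so this filter did not act alike on the genotypes. Nuclei scored as doublets stayed in. Somatic nuclei, spermatogonia and early meiotic nuclei were gated by a log-likelihood ratio over marker genes (rate ratio 8 for somatic and 4 for germ cell classes, minimum ratio 4, or 6 for early meiotic). Later germ cell classes came from Seurat 5.3.0 clusters (30 components, resolution 1) built without 53 genes of the pathway. Gate limits were chosen once the clusters were known.

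Counts were summed per class and library (Python 3.11.15, scanpy 1.11.5). Genotypes were compared by edgeR 4.0.16 (R 4.3.3) quasi-likelihood tests with TMM normalization and filtering by expression, in classes with at least 20 nuclei in each library (and in Sertoli nuclei), and classes by the same test with the library as a block, where both classes had at least 10 nuclei. P-values were adjusted over all genes tested, with a threshold of 0.05. CPM are UMIs scaled to one common total per class and library. The test was checked on simulated counts with a fixed dispersion. These held no difference between genotypes in cell mixture or free RNA, so the check does not cover such differences. Alternatives were DESeq2 1.42.0, no TMM, no filter, replicate blocks, other nucleus and class rules, and each library left out. The text names the 10 genes, Dhx37, list genes called between genotypes or highest of their role in a class of a member, and the 3 genes most like each of 5 members. The members, the lists and the tests were chosen with earlier results of these data known. Poisson intervals of CPM cover counting error only, and intervals of log2 differences come from the spread between libraries.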

Additional observations from a re-analysis of the deposited data

Results flagged for a closer look

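Some members had log2 differences between Dhx37-/- and WT that ran in opposite directions in 2 classes, and in each of these classes the libraries of the genotypes did not overlap. The gaps between classes were not tested, and no single difference below passed the adjusted threshold. Such separation was common: over all genes tested in these classes, both Dhx37-/- libraries were above in 21.5 to 29.7% and below in 13.4 to 27.2%. Aldh1a2 was above WT in early meiotic nuclei (0.85, SE 0.40), pachytene to diplotene spermatocytes (0.44, SE 0.27) and round spermatids (0.57, SE 0.28). It was below in Leydig nuclei (-0.91, SE 0.29) and elongating spermatids (-0.19, SE 0.32). The gaps from Leydig nuclei were 1.77, 1.35 and 1.48, and those from elongating spermatids 1.04, 0.622 and 0.756. Rxrb was above WT in pachytene to diplotene spermatocytes (0.83, SE 0.39) and round spermatids (0.45, SE 0.37) and below in fibroblasts (-0.66, SE 0.55), with gaps of 1.49 and 1.12. Rdh10 was above WT in pachytene to diplotene spermatocytes (0.36, SE 0.42) and below in Leydig nuclei (-0.24, SE 0.40), with a gap of 0.599. Both Rdh10 differences were smaller than their SE. Leaving out a WT library moved some of them: without WT replicates 1 and 2, in turn, Aldh1a2 in pachytene to diplotene spermatocytes differed by 0.75 and 0.18, and Rdh10 in the same class by 0.60 and 0.15. The pachytene to diplotene values came from different mixtures of clusters by genotype: without the Stox1-led cluster, with 2 and 0 WT nuclei against 68 and 222, the differences there were 0.27 for Aldh1a2, 0.79 for Rxrb and 0.01 for Rdh10. Among early meiotic nuclei of the Auts2-led cluster Aldh1a2 differed by 0.85 (adjusted p = 0.618).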

How the results depend on the processing

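Of the 47 pairs of a member and a class, 1 passed between genotypes. The count was 0 with no filter, with DESeq2, with classes from clusters and within the spermatogonia-named cluster, 2 without doublets, and 0 to 5 with 1 library left out. The 5 came without WT replicate 1, and there were 3 without WT replicate 2. A genotype left with 1 library was assumed to vary like the other. Over all nuclei the count of 0 became 5 without WT replicate 1 (Stra8 1.55, Aldh1a1 0.75, Aldh1a2 0.91, Cyp26b1 0.98 and Rara -0.91), within a range of 0 to 5. The 11 member calls between classes became 20 with no filter and 10 to 15 with 1 library left out. The mean share of early meiotic nuclei with a Stra8 UMI fell from 29.6% to 14% on thinning. Aldh1a1 between genotypes in spermatogonia (-1.42) turned to 0.75 without WT replicate 1 and 0.19 with classes from clusters (and was -2.16 without WT replicate 2), Ncoa2 in early meiotic nuclei (-1.07) to 1.05 and Stra8 between spermatogonia and early meiotic nuclei (-1.78) to 3.97 with classes from clusters. In that setting the early meiotic class holds 3 and 2 WT nuclei, so its genotype values rest on those, and the 3.97 on the Dhx37-/- libraries alone. Where no cause is given above, the cause was not tested. Of 311 alternative values for 28 single results, 261 kept their direction and side of the threshold. The marker gate, the upper limit on genes and the test against free RNA were not varied for the later germ cell classes.

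The 906 genes called in early meiotic nuclei became 308 with DESeq2, 1110 with no filter, 3 with classes from clusters (3 and 2 WT nuclei) and 5 within the spermatogonia-named cluster, and 25 (without WT replicate 2), 110 (without Dhx37-/- replicate 2), 399 (without Dhx37-/- replicate 1) and 877 (without WT replicate 1) with 1 library left out.

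The replicate numbers are shared only as numbers: deviations of same-numbered libraries correlated at -0.258 over all nuclei and -0.416 to 0.00812 by class. With the replicate block the count of member calls stayed at 1 and 0 over all nuclei, and early meiotic calls were 355. With the crossed replicate block, added after seeing the data, the member calls were 3. Splitting off the early meiotic nuclei by cluster was also chosen after seeing the data.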
